A study of Mus musculus with 9 samples.

Results

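Distal regions of H3K27ac that were called in wild-type (WT) mouse forelimb buds and in neither Hedgehog pathway mutant are described here. A WT peak was counted when no peak of Shh-/- limb buds and no peak of Shh-/-;Gli3-/- limb buds overlapped it by 1 bp or more, and when it lay outside the windows around protein-coding transcript starts, which reached 2 kb upstream and 1 kb downstream. There were 4950 such peaks among the 25096 WT peaks and among the 11667 WT peaks outside the start windows. Thus 42.4% of distal WT peaks were overlapped by no mutant peak, whereas the same held for 24.1% of all WT peaks and for 8.14% of the 13429 WT peaks in start windows. Because these regions were chosen by the positions of the called peaks in the 3 lists, their absence from the mutant lists is a description and carries no test.

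H3K27ac was profiled by MicroChIP-seq, chromatin immunoprecipitation scaled down for few cells, in forelimb buds of E10.5 embryos (33 to 34 somites). The labels give the strain background as mixed, and the study's methods keep both null alleles on Swiss Webster mice. The 3 groups were WT embryos, described in the study's methods as double mutant littermates with intact Shh and Gli3, embryos homozygous for a null allele of Shh (tm1amc), and embryos homozygous for this allele and for the Gli3 null allele Xt-J. Each group had 2 H3K27ac libraries and 1 input library, each immunoprecipitation used the limb buds of 1 embryo, and whole limb buds were taken, so that a region active in few cells and a weakly acetylated region cannot be told apart. The null alleles were carried by all cells of the mutant embryos, which makes limb size and cell composition part of each genotype. Each group is represented by 1 peak list of 25096 (WT), 32085 (Shh-/-) or 34641 (Shh-/-;Gli3-/-) peaks, without a value per replicate, and no difference could therefore be set against the spread between embryos. Intervals after shares are Wilson 95% intervals and cover counting error over peaks only. A region missing from a mutant list fell short of the caller's thresholds there, which is not the same as having no signal. No list held a peak within Shh, and 12 WT, 18 Shh-/- and 12 Shh-/-;Gli3-/- peaks lay within Gli3. Peak counts over these whole genes do not check the mutant genotypes, and parts of the genes were not examined separately.

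Sonic hedgehog (SHH) is secreted from the posterior margin of the limb bud, and its signal is carried to the genome by the GLI transcription factors. Without SHH, GLI3 and to a lesser degree GLI2 are processed into repressors, and GLI activators are missing. Removing GLI3 as well takes away the main repressor but does not give back the activator. The study describes Gli1 and Ptch1 as targets that need GLI activator for their expression. H3K27ac marks active promoters and enhancers.

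Windows of 300 bp around the peak maximum show what kinds of sequence stood behind the regions missing from both mutants. They were read from the + strand of RefSeq GRCm38.p6, the assembly of mm10, and are printed 5′ to 3′, and they were chosen after their values had been seen. The first 3 come from Gli1 and Ptch1. Gli1 intron a is chr10:127339375-127339674 and Gli1 intron b is chr10:127340325-127340624, both inside Gli1. Ptch1 intron is chr13:63528575-63528874. The next 3 hold the GLI motif GACCACCCA without a mismatch: a window on the Hoxd side of chromosome 2 (chr2:74265325-74265624), an intergenic window (chr10:38554025-38554324) and the array window (chr4:152893575-152893874). Capitals in these 6 mark every match to the GLI motif on either strand with at most 1 mismatch, and a window without capitals holds none.
Gli1 intron a: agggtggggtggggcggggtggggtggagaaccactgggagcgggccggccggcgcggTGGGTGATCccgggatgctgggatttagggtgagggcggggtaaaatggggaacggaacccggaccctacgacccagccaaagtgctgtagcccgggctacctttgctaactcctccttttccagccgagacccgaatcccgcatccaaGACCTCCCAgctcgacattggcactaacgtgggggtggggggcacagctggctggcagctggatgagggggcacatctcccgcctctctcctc
Gli1 intron b: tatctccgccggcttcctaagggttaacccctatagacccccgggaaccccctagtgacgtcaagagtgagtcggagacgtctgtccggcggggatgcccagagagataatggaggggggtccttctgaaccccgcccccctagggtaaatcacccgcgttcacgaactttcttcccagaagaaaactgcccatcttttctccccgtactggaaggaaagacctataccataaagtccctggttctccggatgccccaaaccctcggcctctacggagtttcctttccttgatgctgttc
Ptch1 intron: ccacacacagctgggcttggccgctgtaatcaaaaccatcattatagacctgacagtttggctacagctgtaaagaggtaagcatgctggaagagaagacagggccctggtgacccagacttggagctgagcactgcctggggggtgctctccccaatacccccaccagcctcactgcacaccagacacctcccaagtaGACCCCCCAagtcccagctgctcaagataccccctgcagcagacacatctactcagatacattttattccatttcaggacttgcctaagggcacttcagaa
Hoxd side: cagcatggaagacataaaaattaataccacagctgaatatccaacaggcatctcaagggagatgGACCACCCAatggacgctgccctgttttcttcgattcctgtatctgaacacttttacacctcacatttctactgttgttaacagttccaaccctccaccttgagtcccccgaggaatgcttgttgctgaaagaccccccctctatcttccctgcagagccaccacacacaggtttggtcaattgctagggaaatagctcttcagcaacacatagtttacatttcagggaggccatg
chr10 intergenic: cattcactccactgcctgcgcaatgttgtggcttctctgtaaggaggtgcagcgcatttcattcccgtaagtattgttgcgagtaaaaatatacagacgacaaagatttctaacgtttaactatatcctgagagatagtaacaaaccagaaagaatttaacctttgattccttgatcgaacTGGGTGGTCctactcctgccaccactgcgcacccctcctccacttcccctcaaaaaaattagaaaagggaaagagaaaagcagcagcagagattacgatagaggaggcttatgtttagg
chr4 array: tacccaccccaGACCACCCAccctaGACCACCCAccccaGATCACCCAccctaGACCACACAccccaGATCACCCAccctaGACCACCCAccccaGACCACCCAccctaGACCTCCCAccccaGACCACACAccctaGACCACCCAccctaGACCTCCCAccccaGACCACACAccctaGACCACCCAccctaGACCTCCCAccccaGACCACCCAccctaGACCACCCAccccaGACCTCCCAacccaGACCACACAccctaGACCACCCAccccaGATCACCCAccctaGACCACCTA

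The last pair comes from a stretch of the X chromosome within the gene 4933407K13Rik, where WT-only peaks stood on near copies of a sequence. Copy 1 is chrX:75733575-75733874 and copy 2 is chrX:75754075-75754374, and capitals mark the longest stretch of identical bases, 79 in all.
4933407K13Rik copy 1: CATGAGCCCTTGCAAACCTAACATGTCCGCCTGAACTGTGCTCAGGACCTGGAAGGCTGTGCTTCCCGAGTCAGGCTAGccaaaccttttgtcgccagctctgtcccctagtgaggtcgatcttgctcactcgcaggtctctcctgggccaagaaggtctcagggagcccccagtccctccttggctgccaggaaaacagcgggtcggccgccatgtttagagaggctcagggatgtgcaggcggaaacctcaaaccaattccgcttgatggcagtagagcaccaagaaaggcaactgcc
4933407K13Rik copy 2: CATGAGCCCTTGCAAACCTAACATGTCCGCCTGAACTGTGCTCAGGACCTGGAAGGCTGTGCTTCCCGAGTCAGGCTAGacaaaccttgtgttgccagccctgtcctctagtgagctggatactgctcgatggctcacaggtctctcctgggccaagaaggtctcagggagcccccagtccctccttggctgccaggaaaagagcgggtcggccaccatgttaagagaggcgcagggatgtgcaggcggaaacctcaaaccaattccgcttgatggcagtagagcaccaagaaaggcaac

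Distal WT-only peaks were mostly weak and narrow in the WT list itself. Their median log2 fold of immunoprecipitated over input reads was 2.39 (quartiles 2.24 and 2.58), against 2.77 for distal WT peaks found in all 3 lists, 2.46 for those shared with the double mutant only and 2.42 for those shared with Shh-/- only. Their median width was 150 bp, and 45.3% of them had the smallest width listed, 100 bp. That width was found in 8.5% of the peaks in all 3 lists, 23.1% of those shared with the double mutant only and 26.1% with Shh-/- only. Only 6 of 4950 were 500 bp wide or more. The deposited false discovery rate (FDR) was below 0.05 for 1447 of them, 29.2% (28.0 to 30.5%), compared with 66.8% of the peaks found in all 3 lists. For peaks shared with the double mutant only this share was 42.7%, and for those shared with Shh-/- only it was 35.1%.

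The deposited Poisson −log10 P, which grows with read number as well as with enrichment, separated the classes most. Its median was 6.98 in WT-only peaks (quartiles 5.78 and 9.30) and 26.02 in peaks of all 3 lists. When all distal WT peaks were ranked by log2 fold, the WT-only share went from 56.8% in the lowest decile to 5.83% in the highest, and by −log10 P it went from 91.0% to 0.428%, which was 5 of 1167 peaks. Of the 2391 distal WT peaks with a −log10 P of 25 or more, 30 were in WT only (1.25%). The 3 Gli1 peaks, which lie close together, stood at ranks 12, 16 and 31 among the 4950 by this measure. Their FDR was 0.00159, 0.00227 and 0.0998 in the same order. By −log10 P, Gli1 thus stood near the top of the set.

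**Figure D1:**
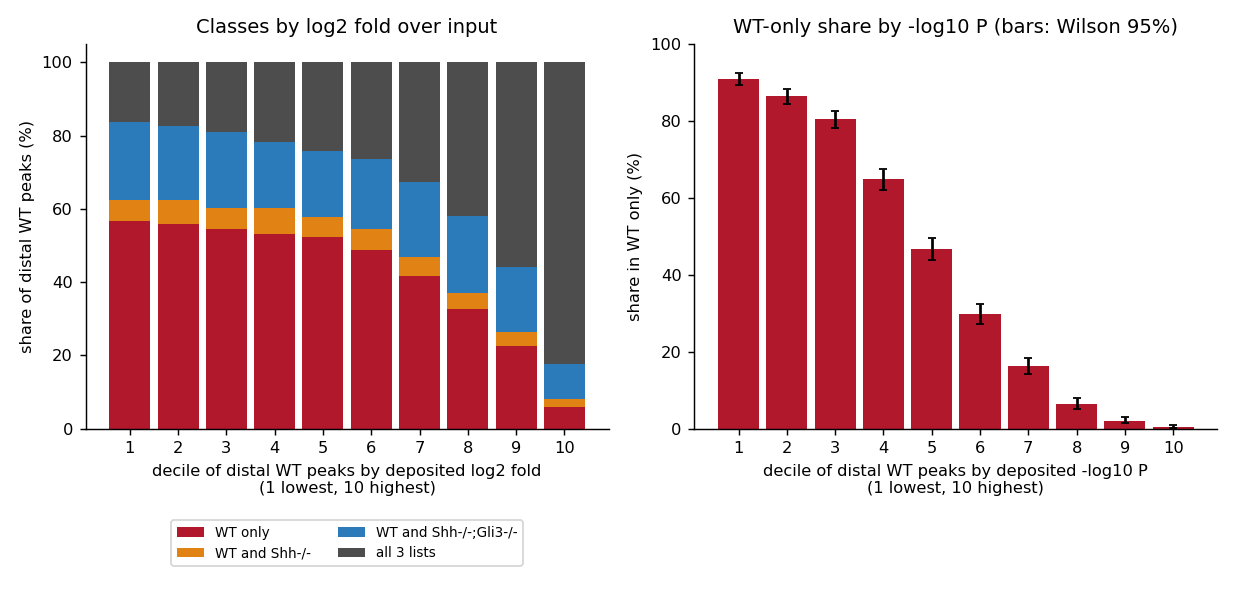
The left panel splits distal WT peaks into 4 classes (% of peaks) within each decile of the deposited log2 fold, and the right panel gives the WT-only share (%) within each decile of −log10 P with Wilson 95% intervals. The WT-only share was 56.8% in the lowest and 5.83% in the highest decile by fold, and 91.0% and 0.428% by −log10 P.

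Most of these regions stood away from any mutant peak. Within 500 bp of a mutant peak lay 1350 of them (27.3%, 26.1 to 28.5%), whereas 3600 (72.7%) stood alone by this distance. The regions near a mutant peak were more often close to a double mutant peak (1106) than to a Shh-/- peak (768), and 524 were close to both. Peaks directly touching a mutant peak without overlap numbered 324, and 340 had mutant peaks within 500 bp on both sides. At the far end, 439 regions (8.87%) were more than 100 kb from any peak of either mutant.

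By single mutant list, 15.5% of the distal WT-only peaks had a Shh-/- peak within 500 bp and 22.3% had a double mutant peak. Classes shared with a single mutant had higher shares, but they were defined by overlapping a mutant peak and were stronger. Their median −log10 P was 13.8 (double mutant only) and 11.7 (Shh-/- only), against 6.98 in WT-only peaks. Among distal WT peaks overlapped by a double mutant peak only, 51.3% (49.2 to 53.4%) had a Shh-/- peak within 500 bp. Among those overlapped by a Shh-/- peak only, 59.4% (55.5 to 63.3%) had a double mutant peak within 500 bp. WT-only peaks in start windows had a mutant peak within 500 bp in 74.7% of cases (72.1 to 77.2%).

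Near and lone regions differed more in −log10 P than in fold. Median −log10 P was 9.10 near a mutant peak and 6.52 away from one, while the median log2 folds were 2.38 and 2.39 and the shares with FDR below 0.05 were 28.5% and 29.5%. Regions near a mutant peak lay within 10 kb of a coding start in 28.9% of cases and lone regions in 18.1%. Lone regions more often consisted of annotated repeats, with 17.5% having more than 50% of their window soft-masked by the assembly, against 6.37% near a mutant peak. Of the regions near a mutant peak, 397 (29.4%) also had, within 500 bp, a WT peak that a mutant shared, and 5 of the lone regions did (0.139%). The rule thus also took in peaks that stood beside a WT peak shared with a mutant. At the threshold itself, the 324 touching peaks had median log2 fold 2.34 and −log10 P 10.4, and the 470 distal WT peaks overlapped by 50 bp at most, just outside the rule, had 2.37 and 10.9.

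**Figure D2:**
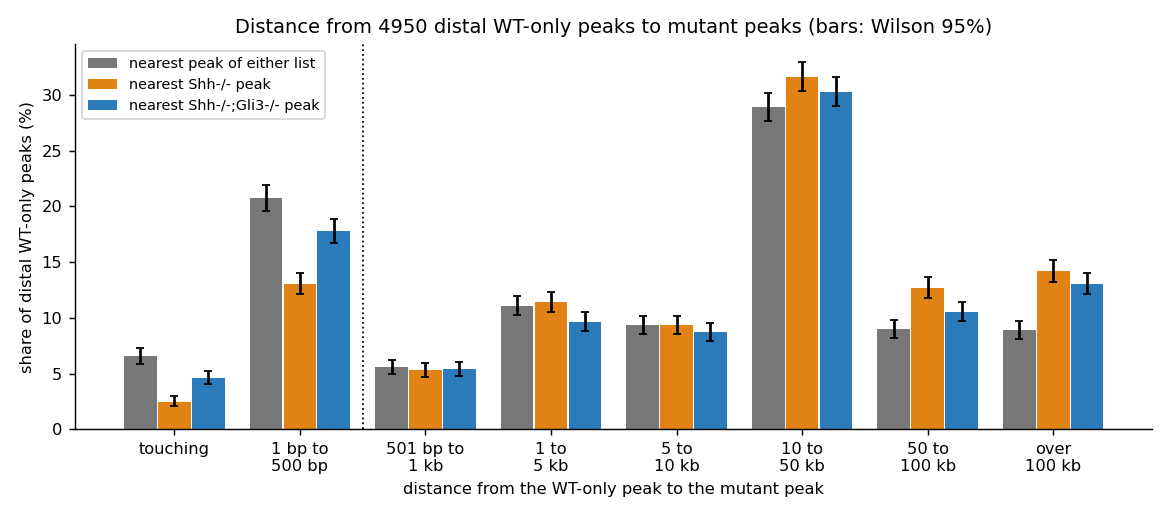
Bars give the share of the 4950 distal WT-only peaks (%) by distance to the nearest peak of either mutant, of Shh-/- and of Shh-/-;Gli3-/- limb buds, with Wilson 95% intervals. Touching peaks made up 6.55%, distances of 1 to 500 bp 20.7% and distances above 10 kb up to 50 kb 28.9% for either mutant.

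At Gli1, a transcriptional activator of the pathway and its most used readout, every distal WT peak was missing from both mutants. The 3 peaks lie in the first part of the gene (chromosome 10, 127329882 to 127341974, minus strand, overlapped by the antisense gene Gm47200), at 127339500 to 127339649, 127339750 to 127339999 and 127340350 to 127340649. Their log2 folds in WT were 2.44, 3.04 and 3.28 and their −log10 P values 24.99, 29.80 and 31.21, and FDR was 0.0998, 0.00227 and 0.00159. The nearest mutant peak of either list was 27.5 to 28.6 kb away. The 3 WT peaks of the Gli1 start window, with log2 folds of 2.17, 2.22 and 3.59, were likewise absent from both mutant lists, so that neither mutant had a peak with Gli1 as its nearest gene. The window of intron a holds 2 matches to the GLI motif with 1 mismatch, and intron b holds none.

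Ptch1, which encodes the SHH receptor and is induced by the pathway, looked different. Its 3 distal WT-only peaks, at 63527400 to 63527499, 63528700 to 63528849 and 63572800 to 63572999 on chromosome 13, had log2 folds of 2.26, 2.35 and 2.56. A double mutant peak lay only 100, 150 and 100 bp away, whereas the nearest Shh-/- peaks were 13.25, 11.9 and 6.85 kb away. The other 4 distal WT peaks of Ptch1 were all overlapped by a double mutant peak and by no Shh-/- peak. Thus the Ptch1 regions called WT-only adjoined stretches marked in the double mutant, and those of Gli1 did not. With Ptch1 as nearest gene there were 10 WT, 7 Shh-/- and 11 double mutant peaks. The double mutant peak over the Ptch1 start had a log2 fold of 5.27. The study reports greatly reduced H3K27ac enrichment in the double mutant at its GLI-bound regions of Gli1 and Ptch1. Enrichment at such regions is a different measure from the presence of called peaks.

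**Figure D3:**
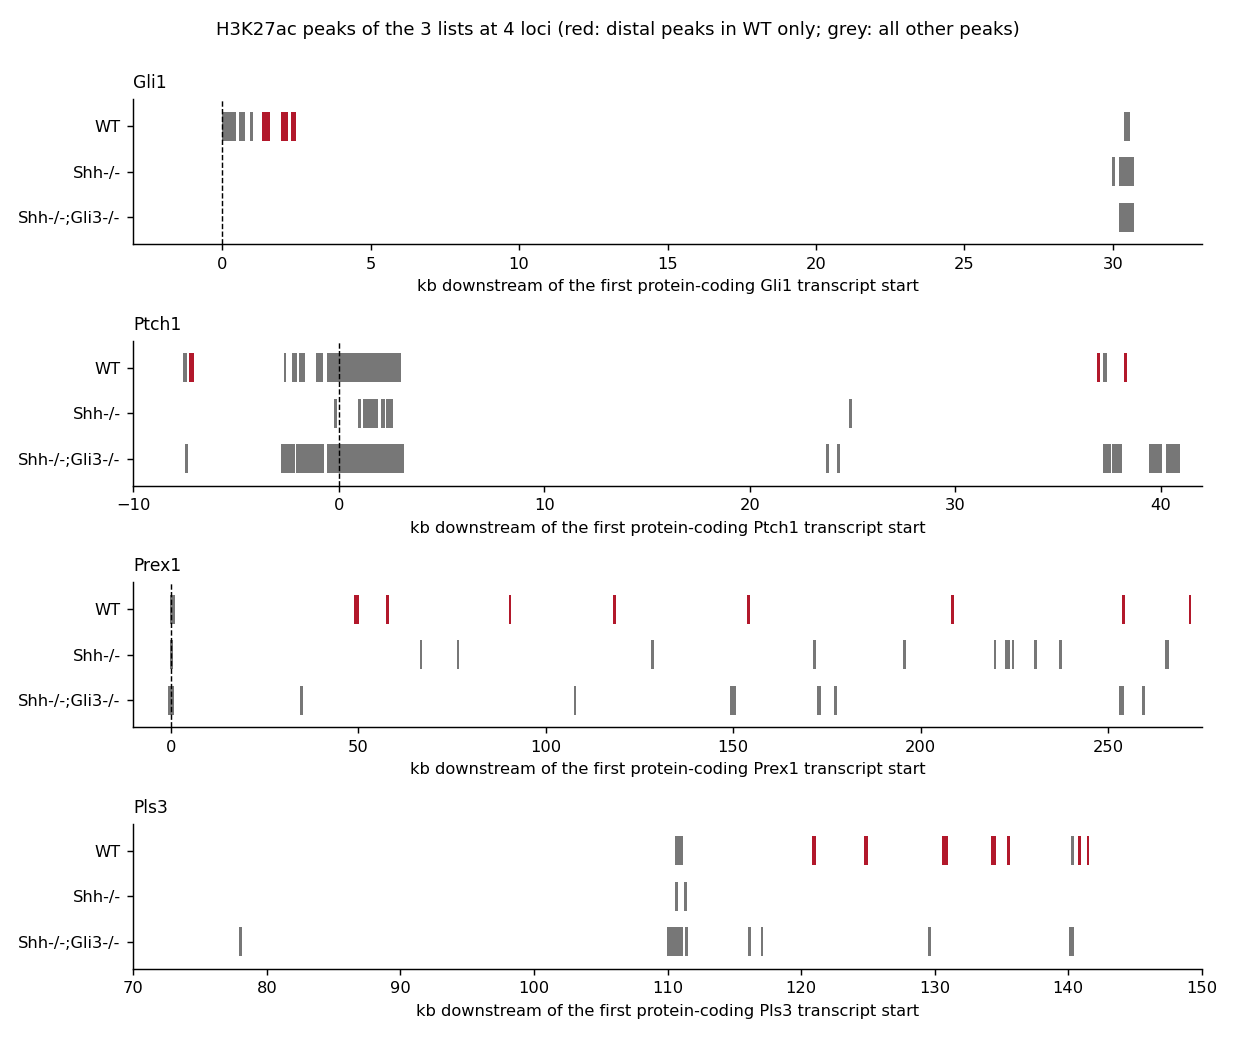
Peaks of the 3 lists are drawn to scale along Gli1, Ptch1, Prex1 and Pls3, in kb from the first protein-coding transcript start (dashed line where within view), with distal WT-only peaks in red and all others in grey. The Gli1 peaks had no mutant peak closer than 27.5 kb, those of Ptch1 had a double mutant peak within 150 bp, and the 9 Prex1 peaks were interspersed with mutant peaks at other positions.

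Across 30 pathway and limb target genes, 45 of the 152 distal WT peaks nearest to these genes were in WT only (29.6%, 22.9 to 37.3%), against 42.4% over all distal WT peaks. Another 51 were shared with the double mutant only, 53 with both mutants and 3 with Shh-/- only. Of the 45, 20 lay within 500 bp of a mutant peak and 9 had an FDR below 0.05, where the whole set had 27.3% and 29.2%. They were spread over 17 of the 30 genes.

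Among the transducers, Gli2, the main GLI activator in development, had 6 of its 16 distal WT peaks in WT only. Its strongest had a log2 fold of 2.87 and stood 50 bp from a double mutant peak, and 2 others touched one. Gli3 had 3 of 15, with folds of 2.23 to 2.38. Sufu, which holds GLI proteins in the cytoplasm, had both of its distal peaks in WT only (2.25 and 2.36, with −log10 P of 5.22 and 6.97). Smo, the signal transducer at the membrane, had its single distal peak there (2.41, with −log10 P of 5.22). In the 3 lowest deciles of −log10 P, which take in the Sufu and Smo peaks, 80.4 to 91.0% of all distal WT peaks were in WT only. The coreceptor genes Boc and Gas1 had 2 of 9 and 4 of 26, and the 6 distal WT peaks of the third coreceptor gene, Cdon, were each overlapped by a mutant peak.

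Among limb targets, Bmp2, a secreted signal of the posterior limb, had all 4 distal WT peaks in WT only. These were 100 bp wide with folds of 2.12 to 2.32, and FDR was below 0.05 for none of them. Tbx3, a transcription factor of the anterior and posterior margins, had 5 of 6, with folds of 2.12 to 2.56 and −log10 P of 5.72 to 12.47. Ccnd2 and Mycn, which promote proliferation, had 4 of 8 and 3 of 15, and all 3 of Mycn lay within 500 bp of a mutant peak. FDR was below 0.05 for 1 WT-only region each at Tbx3, Ccnd2 and Mycn.

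Hand2 and Grem1, a posterior transcription factor and a BMP antagonist, had 1 region each. That of Hand2 (log2 fold 2.44) lies upstream of the gene, 150 bp from a double mutant peak and 18.5 kb from a Shh-/- peak, and the other 6 distal WT peaks of Hand2 were all shared with the double mutant alone. That of Grem1 (2.62, FDR 0.0330) lies in an intron of the neighbouring gene Fmn1 at chr2:113692100-113692399, 500 bp from a double mutant peak and 109 kb from a Shh-/- peak. Both regions thus had a double mutant neighbour and no Shh-/- neighbour, as at Ptch1. The 4 distal WT peaks of Hoxd11 were shared with the double mutant alone, and no WT-only peak had Hoxd11, Hoxd12 or Hoxd13 as its nearest gene.

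Limb patterning genes held fewer of these regions, with 40 of 273 distal WT peaks in WT only (14.7%, 10.9 to 19.3%) against 42.4% over all distal WT peaks. The median log2 fold of those 273 peaks was 2.57, against 2.49 over all distal WT peaks. Lmx1b, which specifies dorsal identity, had 2 of 40 and Tbx5, which starts forelimb outgrowth, had 4 of 24, so that both genes of early limb identity were widely marked in the labelled tissue. Counts at genes of the proximal limb and of retinoic acid varied. Meis1, a homeodomain factor of the proximal limb, had 7 of 20, and its relative Meis2 had 3 of 12. Cyp26b1, which degrades retinoic acid, had 6 of 9, and the retinoic acid receptor gene Rarb had 3 of 8. The Cyp26b1 regions had −log10 P of 5.01 to 8.82, in deciles where 64.9 to 91.0% of all distal WT peaks were in WT only. Shox2 had 0 of 3. None of the distal WT peaks of Dusp6 (21), Tbx15 (16) or Irx3 (8) was in WT only.

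Shares were also taken among peaks of like strength. With log2 folds between 2.24 and 2.58, the middle range of the WT-only peaks, 52.3% of all distal WT peaks were in WT only (2474 of 4728), compared with 49.1% at pathway and limb target genes (26 of 53, 36.1 to 62.1%) and 16.5% at limb patterning genes (16 of 97, 10.4 to 25.1%). Among distal WT peaks with −log10 P between 5.78 and 9.30, their middle range by that measure, 76.9% of all peaks were in WT only (2474 of 3217). For pathway and limb target genes the share was 70% (21 of 30, 52.1 to 83.3%), for limb patterning genes 45.5% (15 of 33, 29.8 to 62.0%) and for cartilage and mesenchyme genes 71.4% (15 of 21). Without either restriction the share of the last list was 25.6% (23 of 90), and its strongest WT-only peak lay in an intron of the cartilage collagen gene Col2a1, with a log2 fold of 3.07, touching peaks of both mutants.

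**Figure D4:**
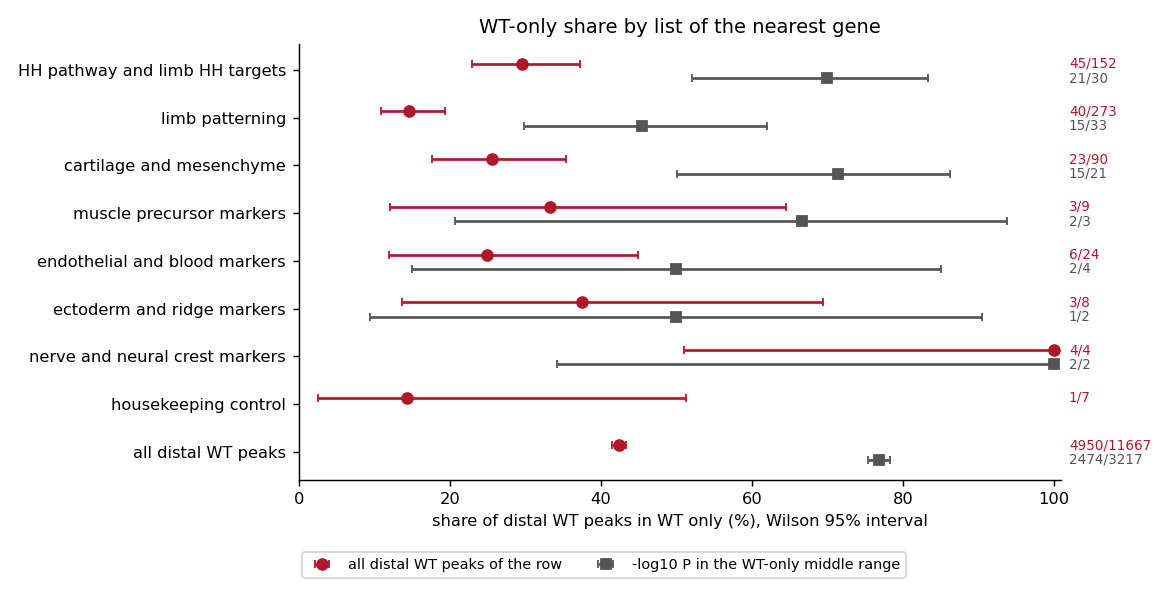
Points give the share of distal WT peaks in WT only (%) by list of the nearest gene, with Wilson 95% intervals and the counts at the right, for all distal WT peaks (red circles) and for those with −log10 P between 5.78 and 9.30 (grey squares). The share over all distal WT peaks was 42.4%, and 76.9% in the narrower range.

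Markers of other cell types in the limb bud were represented by few peaks, so their shares have wide intervals. Over all distal WT peaks 42.4% were in WT only. Of 9 distal WT peaks nearest to muscle precursor genes 3 were in WT only (33.3%, 12.1 to 64.6%). These were 1 each for Cxcr4, Mef2c and Pax3, with folds of 2.27 to 2.38 and no mutant peak within 54 kb. Their −log10 P values were 5.35 to 6.06, in the lowest deciles, where 86.5 to 91.0% of all distal WT peaks were in WT only. Of 24 nearest to endothelial and blood genes 6 were in WT only (25%, 12.0 to 44.9%). Among them were a Tek intron peak with a log2 fold of 3.17 and a Tie1 intron peak with a −log10 P of 25.1. Ectoderm markers had 3 of 8 (Grhl2, Krt8 and Tfap2a), a share of 37.5% (13.7 to 69.4%). Nerve and neural crest markers had 4 of 4 (interval 51.0 to 100%), of which 3 were nearest to Isl1, a gene that is also active in limb mesenchyme, and 1 to Pou4f1. Of these 4, 2 fell in the middle range of −log10 P, where 76.9% of all distal WT peaks were in WT only. The part of cell composition in these counts was not tested.

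The strongest WT-only regions were not at pathway genes. The highest log2 fold, 4.26, and the largest width, 900 bp, belonged to a peak at the 5′ end of Xist and over Tsix, the noncoding RNA genes that control X inactivation, at 103481800 to 103482699 on the X chromosome. It counted as distal because the start windows were set around protein-coding genes, and 307 of the 4950 regions (6.20%) lay in the same window around a noncoding start. A double mutant peak lay 250 bp away and the nearest Shh-/- peak 10.35 kb away. In the body of Xist there were 3 WT peaks, 1 double mutant peak and no Shh-/- peak. The X chromosome held 2.41% of WT, 2.17% of Shh-/- and 4.21% of double mutant peaks, and the Y chromosome 8, 22 and 11 peaks. The labels do not give the sex of the embryos, and its part was not tested.

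Among the other 11 regions of highest fold, 5 lay in introns. These were introns of Calr4 (3.75), St6galnac3 (3.73), Sept11 (3.73), Slc6a6 (3.72) and Nfib (3.61), the last of these touching a double mutant peak. The rest lay 409 kb downstream of Nphp4 (3.70, the array printed above), at Gm14303 near Fam209 (3.61), upstream of Pkdcc (3.60), in Tpm4 (3.59, touching peaks of both mutants), upstream of Sox11 (3.55) and upstream of Ptprs (3.53). Pkdcc encodes a secreted kinase of skeletal development, but the window of its region was 100% soft-masked repeat. Among lone regions the next were at Map3k2 (3.49), Btbd2 (3.48), Tcp11 (3.48), Elf2 (3.47) and Prex1 (3.40). The 12 highest folds were thus split between 7 regions within 500 bp of a mutant peak and 5 lone ones.

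Fold and −log10 P did not single out the same regions. The highest −log10 P, 100, at which the deposited values stop, belonged to a 100 bp peak on the Y chromosome with a log2 fold of only 2.12 in a window that was 100% soft-masked. The next, 94.2, was a 100 bp peak of Prex1 with a fold of 2.19 and an FDR of 0.297. Both were peaks of low fold despite their high −log10 P. Besides Xist (59.3), the next were Zcchc3 (43.4), Hnrnpdl (37.8) and Hoxc4 (36.4), each within 500 bp of a mutant peak.

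The 4950 regions were spread over 3368 nearest genes, of which 2368 had a single region and 26 had 6 or more. Prex1, a guanine nucleotide exchange factor for Rac, had most. Of its 10 distal WT peaks 9 were in WT only, 8 of them lone, with folds of 2.09 to 3.40. Prex1 nevertheless had 17 distal Shh-/- and 18 distal double mutant peaks. The locus therefore held marked regions in each genotype, at different positions.

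Other genes with several regions differed in how close mutant peaks were. Gse1 had 7 of 23, of which 6 lay within 500 bp of a mutant peak, and 13 of its distal WT peaks were shared with the double mutant alone. At Myh9, the gene of a nonmuscle myosin heavy chain, 6 of 8 were WT-only and 5 lay near a mutant peak. At Myo10, the gene of a filopodial myosin, 6 of 7 were WT-only and 5 stood alone. Pls3 (8 of 11), Zfp423 (7 of 26), Map3k7 (6 of 11) and Tmem132c (6 of 19) also had several. Of the genes named here, those with 6 tie with other genes at that number.

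When regions no more than 100 kb apart were joined, 2638 of the 4950 (53.3%, 51.9 to 54.7%) fell into 927 runs of 2 or more. Among the 1447 regions with FDR below 0.05 alone, 24.9% had another within 100 kb. For distal WT peaks shared with a mutant, 82.0% had another such peak within 100 kb. There were 95 runs of 5 or more, and the largest held 11 regions over 129.6 kb between Nnat and Src on chromosome 2 (157432200 to 157561799), 7 of them near a mutant peak. The next held 10 regions in the histone cluster on chromosome 13 (23449950 to 23569349). In both, WT peaks shared with mutants were frequent, with 25 and 33 WT peaks in the span. The Prex1 run differed, since all 9 WT peaks of its 222.75 kb were in WT only while the span held 13 Shh-/- and 9 double mutant peaks.

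With a limit of 10 kb, a distance chosen after seeing the data, 840 regions (16.97%) fell into 374 runs. The largest were 8 regions in the histone cluster, 7 at Igdcc3 and Parp16 and 7 downstream of Pls3. At Hoxc4, a homeobox gene of the anterior HoxC cluster, 5 of 7 WT peaks over 9.15 kb were in WT only. The strongest of these was 500 bp wide, in a UTR, with a log2 fold of 2.86, and stood 350 bp from a double mutant peak and 950 bp from a Shh-/- peak. At Sept11, all 4 WT peaks over 8.6 kb were in WT only, and the span held no Shh-/- peak and 1 double mutant peak.

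The 7 regions on the X chromosome that were assigned to Pls3 lay in introns of 4933407K13Rik (75706932 to 75764699), over 20.75 kb with no Shh-/- peak and 2 double mutant peaks. Their log2 folds were 3.16, 2.27, 2.34, 2.73, 2.95, 2.88 and 2.41 in order along the chromosome. Windows of 6 of them were taken as near copies of a single sequence, and the 15 pairs of these shared stretches of 16 to 152 identical bases. The remaining window, at 75734300, shared 8 to 31 bases with them, so the ranges overlap. The pair printed above shows such a stretch. How reads that map to several places were treated is not given in the sources used here, so the placement of reads in the 6 regions is uncertain. Whether these regions share reads was not tested, and they are not counted as independent.

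By place, 59.4% of the distal WT-only regions were in introns (58.1 to 60.8%). Intronic shares were 50.2% for distal WT peaks in all 3 lists, 56.1% (54.0 to 58.1%) with the double mutant only and 55.2% (51.2 to 59.1%) with Shh-/- only. Of the WT-only regions, 33.2% were intergenic. Coding exons held 3.35%, UTRs 2.51% and noncoding exons 1.49%. The median distance to the nearest coding start was 35.1 kb (quartiles 12.6 and 90.6 kb). Autosomal shares of distal WT peaks in WT only ranged from 36.5% on chromosome 3 (240 of 658) to 49.6% on chromosome 10 (280 of 564), and the X chromosome had 67 of 221 (30.3%). The 3 regions on the Y chromosome lay wholly in soft-masked sequence.

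Repeat content was higher in the WT-only windows than in the other classes, and the excess lay in the lone regions. More than 50% of the window was soft-masked in 14.4% of them (13.5 to 15.5%), against 3.53% of peaks in all 3 lists, 5.54% of those shared with the double mutant and 5.25% of those shared with Shh-/-. Among WT-only regions the share was 17.5% in lone ones and 6.37% in those near a mutant peak. Within the middle range of −log10 P the shares of the 4 classes were 14.8%, 3.21%, 3.59% and 6.51% in the same order. There it was 17.7% in lone WT-only regions and 5.14% in those near a mutant peak. Among peaks of like support the difference was thus also present, but in the lone regions. A stretch of 30 bases shared with another distal WT window was found in 15.8% (14.8 to 16.8%), against 9.57% of the peaks in all 3 lists. How much of this arises from reads that map to several places was not tested.

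Few windows held a GLI motif. The 9 bases GACCACCCA were found on either strand in 23 of 4950 windows (0.465%, 0.310 to 0.696%), compared with 0.228% (0.120 to 0.433%) of peaks in all 3 lists, 0.369% of those shared with the double mutant and 0.328% of those shared with Shh-/-. These intervals overlap. The inner 8 bases, ACCACCCA, were in 2.40% (2.01 to 2.87%), compared with 1.47% (1.14 to 1.90%), 1.20% (0.820 to 1.75%) and 1.48% (0.779 to 2.78%) in the same order, and the interval overlapped that of the last class but not those of the other pair. With at most 1 mismatch, a criterion added after seeing the data, the shares were 8.28% (7.55 to 9.08%), 6.47%, 6.92% and 7.39%. Of the 23 regions with the exact motif, 17 stood alone, 10 had an FDR below 0.05 and 3 were more than 50% soft-masked. None was nearest to a gene of the pathway or limb patterning lists, and of the 45 regions at pathway and limb target genes 6 held the motif with 1 mismatch.

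Regions with the motif illustrate its varied settings. The region on the Hoxd side (log2 fold 3.01) had Lnpk as its nearest coding gene, 313 kb away, and lay 403 kb from Hoxd13. A double mutant peak was 400 bp and a Shh-/- peak 25.8 kb away. Its −log10 P was only 5.23, in the lowest decile, where 91.0% of all distal WT peaks were in WT only. The intergenic region on chromosome 10 (3.04) was 268 kb from Rfpl4b and 12.1 kb or more from any mutant peak. The array on chromosome 4 (3.70) holds 21 matches, 9 exact and 12 with 1 mismatch, of which neighbours are 14 bases apart throughout. It is a tandem array that the assembly does not soft-mask, and no mutant peak lay within 313 kb.

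Among the other motifs searched, the homeodomain core TAATTA was in 4.75% of WT-only windows, in 5.15% of those in all 3 lists in 7.94% of those shared with the double mutant and in 3.12% of those shared with Shh-/-. The AP-1 motif TGANTCA was in 8.14%, compared with 6.50%, 7.71% and 8.37% in the same order. The core AGATAA of GATA factors was in 10.9%, as in the windows in all 3 lists, and the core ACAAAG of SOX factors was in 24.3%, compared with 26.7%. A match is only a run of letters and shows no binding.

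**Figure D5:**
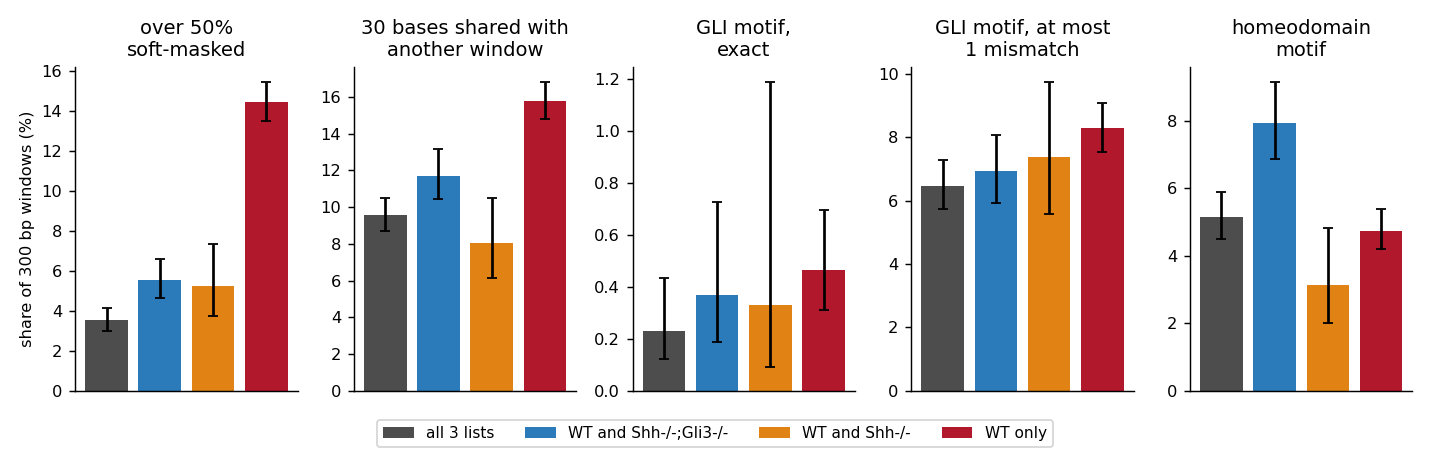
Bars give the share of 300 bp windows (%) with each sequence property for the 4 classes of distal WT peaks, with Wilson 95% intervals and a separate axis from 0 in each panel. WT-only windows stood at 14.4% for soft-masking above 50% and at 15.8% for a 30-base stretch shared with another window, above the other 3 classes in both.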

How the data were processed

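H3K27ac MicroChIP-seq of E10.5 forelimb buds comprised 9 libraries, 2 H3K27ac replicates and 1 input for each of 3 genotypes, amplified with 12 PCR cycles per the labels. Titles gave the groups, since all 9 samples carry wild type as their genotype label. The authors deposited 1 peak list per genotype (mm10, CisGenome 2.1.0 per the study's methods, with Bowtie2 2.2.5 in the submitters' processing notes), attached to the first replicate of each genotype. The labels do not say whether replicates were pooled, and the lists hold no value per replicate. Library depth was not used here.

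Peak width in bp was deposited in steps of 50 bp. The deposited log2 fold is the largest of immunoprecipitated over input reads in a peak, the deposited score is the caller's largest statistic, and the deposited −log10 of the smallest Poisson p-value stops at 100. The deposited false discovery rate (a q-value) reached 0.350 in WT, 0.186 in Shh-/- and 0.109 in Shh-/-;Gli3-/- limb buds, so the lists extend beyond an FDR of 0.05. These values served to describe or rank WT peaks and to filter by threshold. Folds were not compared between lists, since each is relative to another input.

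Overlaps (1 bp or more), distances, nearest protein-coding starts (GENCODE M21 basic) and 300 bp windows centred on the peak maximum (RefSeq GRCm38.p6) were obtained with pandas 2.3.3, numpy 2.4.6 and scipy 1.17.1 under Python 3.11.15, and plotted with matplotlib 3.10.9. Positions are printed as listed and were read as 1-based, which the lists do not state. The overlap and interval steps were tested on simulated data. No p-values were computed, because each genotype has 1 list and peaks are not replicates.

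The regions and gene lists were chosen with earlier results of these data known. Named were the 12 regions of highest fold, the 10 lone regions of highest fold, the 10 widest, regions nearest to genes of the pathway and cell type lists, the 12 genes and 8 runs with most regions (ties among genes by their highest fold), and regions with the GLI motif. Regions ranked by −log10 P, the cartilage and limb patterning examples, the 10 kb runs and the printed windows were named after their values were seen. A few regions that this rule names are not reported here. The alternatives were 50% coverage, FDR below 0.05, log2 fold of at least 3, width of at least 500 bp, equal numbers of peaks, autosomes only, wider start windows and other distances.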

Additional observations from a re-analysis of the deposited data

How the results depend on the processing

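No paired analysis was possible because the 3 lists carry no column per replicate, and for the same reason no replicate could be left out. The number of distal WT-only peaks, 4950 as reported, was 1610 with FDR below 0.05 in all 3 lists, 1447 with that FDR in WT alone, 229 with a log2 fold of at least 3 and 6 with a width of at least 500 bp. With 50% coverage, equal numbers of peaks, autosomes only or 5 kb windows around any start it stayed within 1.5 times (3811 to 5463). The share within 500 bp of a mutant peak, 27.3%, was 34.1% with 50% coverage, 25.7% with FDR below 0.05 in all lists, 23.96% with equal numbers, 31.9% with a fold of at least 3, 50% at 500 bp width (6 peaks), 24.2% with 5 kb windows and 32.8% within 1 kb. The share with another region within 100 kb, 53.3%, was 56.2% with 50% coverage, 27.02% with FDR below 0.05 in all lists, 24.9% in WT alone, 56.1% with equal numbers, 7.42% with a fold of at least 3, 0% at 500 bp width and 46.7% with 5 kb windows. It was 39.3% within 50 kb and 16.97% within 10 kb, and fewer regions enter under the stricter settings. The intronic share, 59.4%, moved only at 500 bp width (33.3% of 6). The share with the GLI motif, 0.465%, was 1.75% with a fold of at least 3, 0% at 500 bp width and 2.40% for the 8 bases ACCACCCA. The 1.75% rests on 4 of 229 regions, the array on chromosome 4 among them. In ranges chosen after seeing the data, the share at pathway and limb target genes, 29.6%, was 49.1% in the middle range of folds and 70% in that of −log10 P, and at limb patterning genes, 14.7%, it was 16.5% and 45.5%, where all distal WT peaks stood at 52.3% and 76.9%. The cause of these shifts was not tested. Without a value per replicate or read counts, a region missing in a mutant cannot be told apart from one just under the caller's thresholds.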

Other observations

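Several lone regions stood very far from any mutant peak. Besides the array on chromosome 4, the highest log2 folds among the 439 regions more than 100 kb from both mutant lists were 3.33 in an intron of Cacna1b, a neuronal calcium channel gene, 3.24 near Pabpc6, 3.22 near Cntn1, a neuronal adhesion gene, and 3.14 near Atg4a. Their nearest mutant peaks lay 166, 186, 177 and 153 kb away.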
